A study of Mus musculus with 2 samples.

Results

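The genes described here are the axon guidance ligands and receptors of the mouse, taken by symbol alone: the class 3 to class 7 semaphorins, the plexins and neuropilins, the ephrins and Eph receptors, the Slits and Robos, and the netrins with Dcc and the Unc5 receptors. They number 69 of 23203 gene symbols that occur once in the count files, and 63 of them were measured, meaning a summed count of at least 20 over the pair of libraries. RNA came from dorsal root ganglia, the clusters of sensory nerve cells beside the spinal cord, of wild-type (WT) mice. One group was treated with Acetone/Ether/Water (AEW), a chemical model of dry, itching skin, on 5 days in a row, and the other with Water, and ganglia were taken on day 6. RNA of 6 mice was pooled per group and sequenced as 1 library with a QuantSeq kit, so no difference below has a replicate check and no p-value was computed. Not given in the sources used here are the strain, sex and age of the mice. Gene positions are those of GENCODE M21 on mm10.

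Axon guidance cues are secreted or membrane-bound proteins that attract or repel growing nerve fibres. Secreted class 3 semaphorins bind neuropilins, which signal through plexins, and most other semaphorins bind plexins directly. Ephrins bind Eph receptor tyrosine kinases on neighbouring cells, Slits repel through Robo receptors, and netrins attract through Dcc and repel through Unc5 receptors. In the adult ganglion the same proteins are known from neurons, glia, vessels and fibroblasts, and they are studied for their part in nerve fibre growth and sprouting in the skin.

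Total depth was 9333882 counts for the control and 14376228 for AEW. Levels are given as CPM, the count divided by a library size scaled by TMM and multiplied by 1000000, and each ratio of AEW to control carries an exact 95% interval that covers counting error only. A gene is called higher or lower where the ratio is at least 1.5-fold and the interval excludes 1. Of all 14854 measured genes, 17.3% were called higher and 14.9% lower, 32.3% together. The labels give the cell type as neurons, and all 20 pan-neuronal markers were measured, but so were markers of glia, fibroblasts, vessels, muscle and macrophages. Pan-neuronal markers were called higher in 13 of 20 and summed to 10110 CPM in the control against 15930 in AEW, with none at 0. Fibroblast markers were lower in 6 of 10 (14885 and 7197 CPM), macrophage markers in 10 of 11 (703 and 281) and skeletal muscle markers in 7 of 8 (1791 and 750). Skin and hair markers were higher in 11 of 11 (19.8 and 847 CPM), with Dsg1a at 0 in the control. Endothelial markers were lower in 3 of 11 (233 and 208 CPM), mural cell markers in 1 of 8 (268 and 179), myelin genes in 3 of 10 (20426 and 17229), satellite glia markers in 1 of 7 measured (7282 and 6640) and spinal cord markers in 3 of 7 measured (42.7 and 30.4). The part of these shifts in the results below was not tested, and in pooled tissue fewer cells of a type and less RNA per cell cannot be told apart.

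As a whole the guidance genes went both ways under TMM. Of the 63 measured, 15 were called higher (23.8%), 9 lower (14.3%) and 39 neither, beside 17.3% and 14.9% of all measured genes. Their median log2 ratio was 0.10, against 0.03 for all measured genes. The largest called differences were in Sema3a, a repellent of sensory fibres, and Slit1 among those higher, and in the receptor gene Epha8 and the semaphorin gene Sema6a among those lower. Scaling on total counts gave 19 higher and 7 lower, beside 20.4% and 12.3% of all genes. Scaling on the pan-neuronal list, which lowers every log2 ratio by 0.82, gave 1 higher and 36 lower, beside 3.39% and 61.0%, and turned the median to -0.72. At 2-fold, 8 members were higher and 4 lower, beside 8.23% and 6.85%. With an interval that excludes 1.5-fold, 9 and 4 were called, beside 8.93% and 7.21%.

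**Figure D1:**
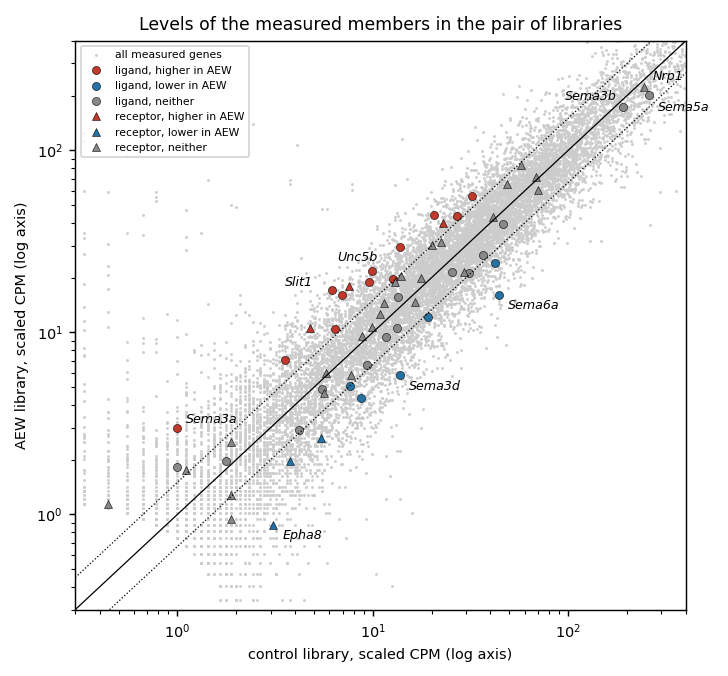
Scaled CPM of each measured guidance gene in the control library (x axis) and the AEW library (y axis), both on log axes, over all measured genes in grey. The solid line marks equal levels and the dotted lines 1.5-fold. Slit1 and Unc5b lie above the upper dotted line, Sema6a and Sema3d below the lower one, and the most counted members, Sema5a, Nrp1 and Sema3b, lie between them.

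Class 3 semaphorins, the secreted repellents, had calls in both directions under TMM, with 2 of 6 measured members higher and 2 lower. Of all measured genes, 17.3% were higher and 14.9% lower. After either GC correction 1 class 3 member was higher and 1 lower. On the pan-neuronal scale none was higher and 4 were lower, where 61.0% of all measured genes were lower. Sema3a (ENSMUSG00000028883.17, plus strand of chromosome 5, 13125414 to 13602565), which collapses sensory growth cones through Nrp1, had 9 control counts (0.994 CPM) and 44 AEW counts (2.97 CPM). It was 2.99-fold higher (1.44 to 6.96), and the wide interval reflects the 9 control counts. Sema3f (ENSMUSG00000034684.12, minus strand of chromosome 9, 107681500 to 107710475), a ligand of Nrp2, had 58 control counts (6.41 CPM) and 154 AEW counts (10.4 CPM). That is 1.62-fold higher (1.19 to 2.23), and its log2 ratio of 0.70 was 0.52 after correction for GC content of the whole transcript and 0.38 after correction for that of its last 500 bases, neither called. Together the higher pair rests on fewer reads than the lower pair.

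Sema3d (ENSMUSG00000040254.11, plus strand of chromosome 5, 12383385 to 12588948) had 124 control counts (13.7 CPM) and 86 AEW counts (5.8 CPM) and was 2.36-fold lower (1.78 to 3.14). Sema3c (ENSMUSG00000028780.13, plus strand of chromosome 5, 17574281 to 17730268) had 380 control counts (42.0 CPM) and 355 AEW counts (24.0 CPM) and was 1.75-fold lower (1.51 to 2.03), with a log2 ratio of -0.81 that was -0.58 and -0.55 after the GC corrections, short of the 1.5-fold threshold. Both encode secreted semaphorins, and their transcripts are AT-rich, with 39.2% GC for Sema3d and 42.7% for Sema3c. Fibroblast markers were lower in the same library, as given above. Sema3b, the class 3 member with the most reads, had 1729 control counts (191 CPM) and 2564 AEW counts (173 CPM), a ratio of 0.906 (0.852 to 0.963). Sema3e, which can bind Plxnd1 without a neuropilin, had 122 and 233 counts and a ratio of 1.17 (0.933 to 1.46). Sema3g was not measured, at 2 and 0 counts.

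The membrane-bound class 4 semaphorins were mostly higher under TMM. There 4 of 6 were called higher and 1 lower, beside 17.3% and 14.9% of all measured genes. On the pan-neuronal scale none was higher and 2 were lower, beside 61.0% of all measured genes lower. Their median log2 ratio was 0.84, or 0.02 when scaled on the pan-neuronal list. Sema4b (ENSMUSG00000030539.13, plus strand of chromosome 7, 80186841 to 80226527) had 186 control counts (20.5 CPM) and 653 AEW counts (44.1 CPM) and was 2.14-fold higher (1.82 to 2.54). Sema4f (ENSMUSG00000000627.15, minus strand of chromosome 6, 82911885 to 82939769) had 125 control counts (13.8 CPM) and 437 AEW counts (29.5 CPM) and was 2.14-fold higher (1.75 to 2.63). These transmembrane proteins were close to each other in ratio, and their intervals overlap almost entirely. Sema4d (ENSMUSG00000021451.16, minus strand of chromosome 13, 51685529 to 51793747), the ligand of Plxnb1, had 87 control counts (9.61 CPM) and 281 AEW counts (19.0 CPM) and was 1.97-fold higher (1.55 to 2.54). Sema4c (ENSMUSG00000026121.13, minus strand of chromosome 1, 36548639 to 36558349), a ligand of Plxnb2, had 243 control counts (26.8 CPM) and 645 AEW counts (43.5 CPM) and was 1.62-fold higher (1.4 to 1.89), with a log2 ratio of 0.70 that was 0.55 after either GC correction, short of the 1.5-fold threshold. Sema4a (ENSMUSG00000028064.17, minus strand of chromosome 3, 88435959 to 88461182), known also from immune cells, went the other way with 173 control counts (19.1 CPM) and 181 AEW counts (12.2 CPM). It was 1.56-fold lower (1.26 to 1.94) and was not called under total count scaling, where its log2 ratio was -0.56. Sema4g had 120 and 156 counts and a ratio of 0.794 (0.622 to 1.02).

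The remaining semaphorins held both the lowest and some of the highest ratios of the superfamily. Sema6a (ENSMUSG00000019647.16, minus strand of chromosome 18, 47235598 to 47368870), a transmembrane ligand of Plxna2 and Plxna4, had 399 control counts (44.1 CPM) and 239 AEW counts (16.1 CPM). It was 2.73-fold lower (2.32 to 3.22), and it stayed called lower under every setting tried. Its relative Sema6c (ENSMUSG00000038777.19, plus strand of chromosome 3, 95160457 to 95174024) had 63 control counts (6.96 CPM) and 239 AEW counts (16.1 CPM) and was 2.32-fold higher (1.75 to 3.11). The counting intervals of these class 6 members do not overlap. Sema6b had 38 and 43 counts with a ratio of 0.691 (0.436 to 1.1), and Sema6d had 229 and 320 counts with a ratio of 0.854 (0.718 to 1.02). After either GC correction, 1 of the 4 class 6 members was called higher and 2 lower.

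Sema7a (ENSMUSG00000038264.8, plus strand of chromosome 9, 57940112 to 57962865) encodes a lipid-anchored semaphorin that promotes fibre growth through integrins and also binds Plxnc1. It had 90 control counts (9.94 CPM) and 322 AEW counts (21.7 CPM) and was 2.19-fold higher (1.73 to 2.79). Sema5b (ENSMUSG00000052133.16, plus strand of chromosome 16, 35541145 to 35664732), a class 5 member with thrombospondin repeats, had 32 control counts (3.53 CPM) and 104 AEW counts (7.02 CPM) and was 1.99-fold higher (1.32 to 3.05). Sema5a, its only class 5 relative in the files and the semaphorin with the most reads, had 2342 control counts (259 CPM) and 2984 AEW counts (201 CPM), a ratio of 0.778 (0.737 to 0.822). That interval lies below 1, yet the difference is under 1.5-fold. Over all classes, 9 of 19 measured semaphorins were higher and 4 lower, 68.4% called beside 32.3% of all measured genes. On the pan-neuronal scale none was higher and 10 were lower, beside 3.39% and 61.0% of all measured genes.

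Plexins, the semaphorin receptors, had ratios mostly above 1 but under the threshold. None of the 9 was called under TMM, while 8 had a ratio above 1, with a median log2 ratio of 0.43 that turned to -0.39 when scaled on the pan-neuronal list. Plxnc1, the receptor of Sema7a and the plexin with the most reads (ENSMUSG00000074785.5, minus strand of chromosome 10, 94790866 to 94944835), had 520 control counts (57.4 CPM) and 1231 AEW counts (83.1 CPM). Its ratio of 1.45 (1.3 to 1.61) lay just under the threshold. With total counts as the scale 4 of the 9 were called higher, Plxnc1 among them at a log2 ratio of 0.62, and after thinning the AEW library to the control depth 2. Of all measured genes, 20.4% were higher with total counts. After the GC correction on the whole transcript 1 plexin was called lower, and after that on the last 500 bases 1 plexin was called higher. On the pan-neuronal scale 4 were called lower, where 61.0% of all measured genes were lower. The plexins A, which signal for the neuropilins, had ratios of 1.46 (1.17 to 1.83) for Plxna1, 1.35 (1.2 to 1.51) for Plxna2, 1.47 (1.19 to 1.82) for Plxna3 and 1.04 (0.911 to 1.18) for Plxna4. Plxnb2 was nearest to a call with 182 and 445 counts and a ratio of 1.49 (1.25 to 1.78).

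Plxnb1, the receptor of Sema4d, was the 1 plexin with a ratio below 1, at 265 and 318 counts and 0.733 (0.621 to 0.866), an interval that does not overlap that of Plxnb2. Plxnb3 had 90 and 158 counts and a ratio of 1.07 (0.823 to 1.41). Plxnd1, a receptor of vessels and of Sema3e, had 160 and 295 counts and a ratio of 1.13 (0.926 to 1.37). The neuropilins, which bind the class 3 semaphorins, were nearly level between the libraries under TMM. Both were called lower on the pan-neuronal scale, as were 61.0% of all measured genes, with a median log2 ratio of -0.85 for the neuropilins. Nrp1 (ENSMUSG00000025810.9, plus strand of chromosome 8, 128358604 to 128503363) had 2204 control counts (243 CPM) and 3309 AEW counts (223 CPM), a ratio of 0.917 (0.869 to 0.968). Nrp2 had 618 control counts (68.3 CPM) and 1055 AEW counts (71.2 CPM), a ratio of 1.04 (0.943 to 1.15). Under TMM both intervals stay within 1.5-fold in either direction.

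**Figure D2:**
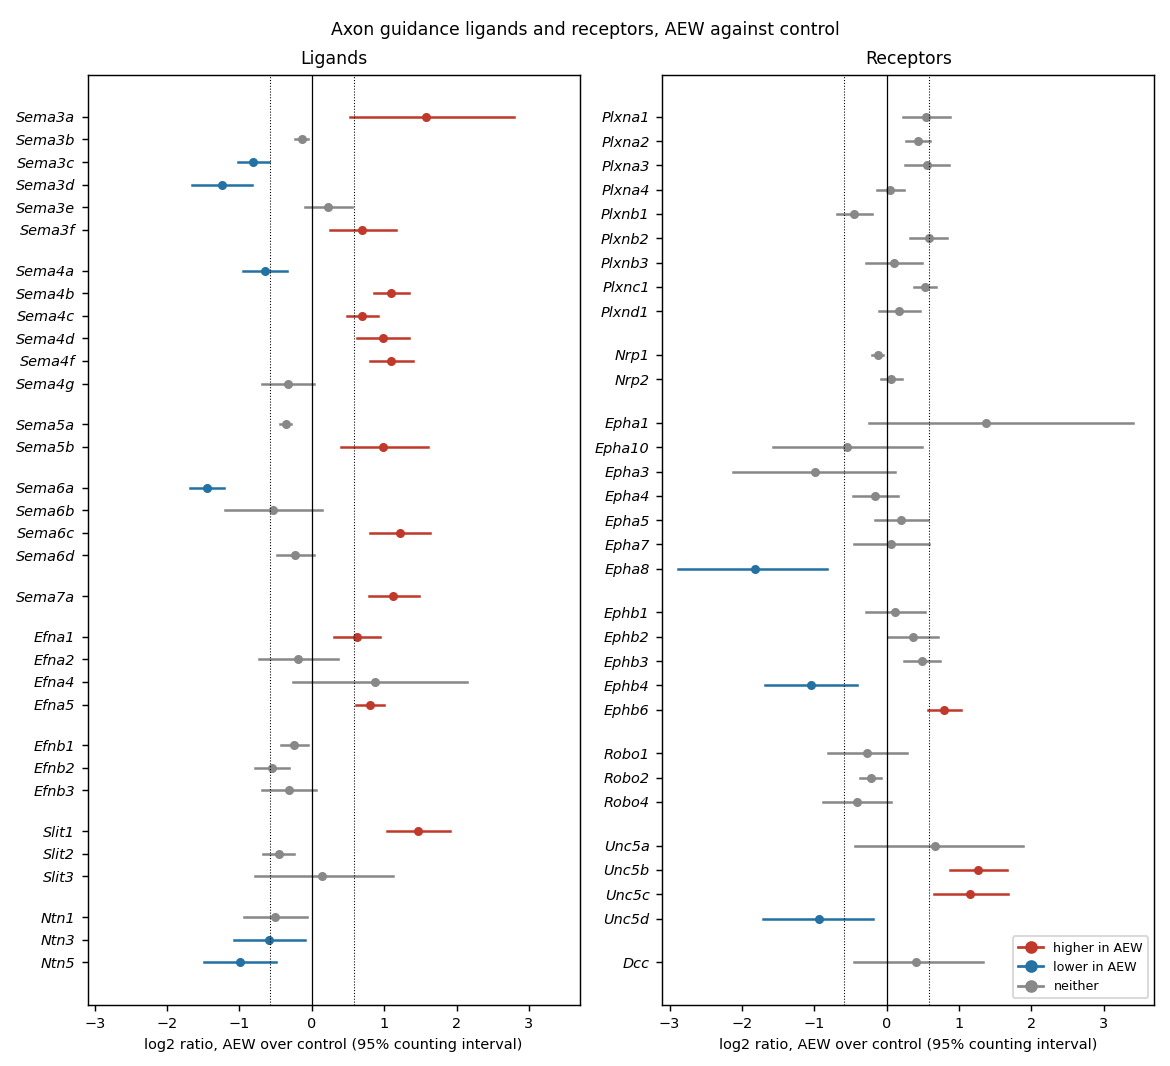
Log2 ratio of AEW to control (x axis) for each measured ligand (left) and receptor (right), grouped by family; bars are 95% counting intervals and dotted lines mark 1.5-fold. Most of the called ligands are semaphorins (13), whereas all 9 plexins are grey. Zero on this axis depends on the TMM scaling, with 4 plexins called higher under total counts and a plexin median of -0.39 on the pan-neuronal scale.

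Ephrins of the A and B classes had median log2 ratios on either side of 0 under TMM. Among ephrins of class A, which are tethered to the membrane by a lipid anchor, 2 of 4 measured were higher under TMM. Of all measured genes, 17.3% were higher. On the pan-neuronal scale no class A ephrin was higher and 1 was lower, beside 3.39% and 61.0% of all measured genes. The median log2 ratio of 0.71 for the class turned to -0.11 on that scale. Efna5 (ENSMUSG00000048915.12, minus strand of chromosome 17, 62604184 to 62881317), a repellent ephrin that binds EphA receptors, had 292 control counts (32.3 CPM) and 833 AEW counts (56.2 CPM) and was 1.74-fold higher (1.52 to 2.0). Efna1 (ENSMUSG00000027954.9, minus strand of chromosome 3, 89271733 to 89281142), known also from vessels, had 115 control counts (12.7 CPM) and 290 AEW counts (19.6 CPM) and was 1.54-fold higher (1.24 to 1.93), with a log2 ratio of 0.62 that was 0.56 and 0.51 after the GC corrections, short of the 1.5-fold threshold. Efna4 had 9 and 27 counts with a ratio of 1.83 (0.837 to 4.43), and Efna2 had 50 and 72 counts with a ratio of 0.88 (0.605 to 1.29). For Efna3, 0 counts in each library allow levels of up to 0.331 CPM (control) and 0.202 CPM (AEW).

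The transmembrane ephrins of class B all had ratios below 1, and none was called under TMM. All 3 were called lower on the pan-neuronal scale, as were 61.0% of all measured genes. Efnb1, with the most reads, had 421 control counts (46.5 CPM) and 582 AEW counts (39.3 CPM), a ratio of 0.845 (0.744 to 0.96). Efnb2, a marker of arteries that also signals to Ephb4, had 281 control counts (31.0 CPM) and 314 AEW counts (21.2 CPM), a ratio of 0.683 (0.579 to 0.805). Efnb3 had 106 and 139 counts and a ratio of 0.801 (0.618 to 1.04). The median log2 ratio of the class was -0.32 and stayed below 0 under every setting tried.

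Of 12 measured Eph receptors, 1 was called higher and 2 lower under TMM, or 8.33% and 16.7%. Beside these, 17.3% of all measured genes were higher and 14.9% lower. On the pan-neuronal scale no Eph receptor was higher and 8 were lower, where 61.0% of all measured genes were lower. Epha8 (ENSMUSG00000028661.8, minus strand of chromosome 4, 136929419 to 136956816), an ephrin-A receptor kinase, had 28 control counts (3.09 CPM) and 13 AEW counts (0.877 CPM) and was 3.53-fold lower (1.77 to 7.41). The call rests on 41 reads in all. Epha4, a receptor of both ephrin classes and the EphA member with the most reads, had 148 control counts (16.3 CPM) and 217 AEW counts (14.6 CPM), a ratio of 0.896 (0.723 to 1.11). Epha5 and Epha7, with ratios of 1.15 (0.895 to 1.48) and 1.05 (0.735 to 1.5), were likewise not called. Epha3 had 17 and 14 counts, Epha10 17 and 19 counts and Epha1 4 and 17 counts, and all of these intervals include 1. Exons of Epha1 share 236 bases with Zyx on the opposite strand, which had 318 and 422 counts, and whether counting used strand was not given in the sources used here. Epha2 (7 and 8 counts) and Epha6 (5 and 13 counts) were not measured.

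In class B, Ephb6 (ENSMUSG00000029869.7, plus strand of chromosome 6, 41605482 to 41620509), a receptor without kinase activity and the member with the most reads, had 208 control counts (23.0 CPM) and 591 AEW counts (39.9 CPM). It was 1.74-fold higher (1.48 to 2.04), with a log2 ratio of 0.80 that was 0.56, short of the 1.5-fold threshold, after correction for GC content of the last 500 bases. Ephb4 (ENSMUSG00000029710.15, plus strand of chromosome 5, 137350109 to 137378669), the receptor of Efnb2 on veins, had 49 control counts (5.41 CPM) and 39 AEW counts (2.63 CPM) and was 2.06-fold lower (1.32 to 3.22). Endothelial markers were lower in 3 of 11 with a median log2 ratio of -0.12, and 0 were higher. Ephb1, Ephb2 and Ephb3 had ratios of 1.08 (0.819 to 1.44), 1.28 (1.01 to 1.64) and 1.4 (1.18 to 1.66) and were not called. Ephb4 and Ephb6 thus lay on either side of the other class B receptors.

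Of the Slits, 1 of 3 was higher under TMM and none lower, beside 17.3% and 14.9% of all measured genes. On the pan-neuronal scale 1 was higher and 1 lower, beside 3.39% and 61.0%. Slit1 (ENSMUSG00000025020.11, minus strand of chromosome 19, 41600257 to 41743665), a secreted repellent of neural origin, had 56 control counts (6.19 CPM) and 253 AEW counts (17.1 CPM). It was 2.76-fold higher (2.06 to 3.76), and it was the single member still called higher on the pan-neuronal scale, at a log2 ratio of 0.64. Slit2, which also promotes branching of sensory fibres and has the most Slit reads, had 332 control counts (36.7 CPM) and 395 AEW counts (26.7 CPM). Its ratio of 0.727 (0.627 to 0.844) lay below 1 with an interval apart from that of Slit1, but within 1.5-fold. Slit3 had 16 and 29 counts and a ratio of 1.11 (0.582 to 2.18). The Robo receptors were not called under TMM, and all 3 measured members had ratios below 1. Robo2 (ENSMUSG00000052516.19, minus strand of chromosome 16, 73891839 to 74411825) had 637 control counts (70.4 CPM) and 893 AEW counts (60.3 CPM), a ratio of 0.856 (0.773 to 0.95). Robo1 had 51 and 69 counts with a ratio of 0.827 (0.567 to 1.21), and Robo4, a Robo of endothelial cells, had 70 and 86 counts with a ratio of 0.751 (0.541 to 1.04). Their median log2 ratio of -0.27 became 0.03 after correction for GC content of the last 500 bases and -1.10 on the pan-neuronal scale. There all 3 were called lower, as were 61.0% of all measured genes. Robo3, the Robo of commissural neurons, was not measured at 0 and 4 counts.

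Netrins and their repulsive receptors lay mostly on opposite sides, with median log2 ratios of -0.59 and 0.91, or -1.41 and 0.09 on the pan-neuronal scale. Of 3 measured netrins, 2 were lower under TMM, beside 14.9% of all measured genes, and all 3 had ratios below 1. On the pan-neuronal scale all 3 netrins were called lower, beside 61.0% of all measured genes. Ntn5 (ENSMUSG00000070564.15, plus strand of chromosome 7, 45684022 to 45694556) had 79 control counts (8.73 CPM) and 65 AEW counts (4.39 CPM) and was 1.99-fold lower (1.41 to 2.81). Its exons share 519 bases, 23.4% of their length, with Sec1 on the opposite strand, which had 14 and 16 counts. Ntn3 (ENSMUSG00000117406.1, minus strand of chromosome 17, 24203848 to 24209531) had 69 control counts (7.62 CPM) and 75 AEW counts (5.06 CPM) and was 1.51-fold lower (1.07 to 2.12), a call lost under total count scaling and after thinning the AEW library to the control depth. Exons of Ntn3 share 89 bases, 1.74% of their length, with Tbc1d24 on the same strand, which had 104 and 197 counts. Ntn1, the founding attractant and the netrin with the most reads, had 85 control counts (9.39 CPM) and 98 AEW counts (6.61 CPM), a ratio of 0.704 (0.521 to 0.953), and was called lower after correction for GC content of the whole transcript, at a log2 ratio of -0.67. Ntn4 was not measured at 3 and 3 counts.

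Among the Unc5 receptors, which convert the netrin response to repulsion, 2 of 4 were higher and 1 lower under TMM. Of all measured genes, 17.3% were higher and 14.9% lower. On the pan-neuronal scale no Unc5 receptor was higher and 1 was lower, beside 3.39% and 61.0% of all measured genes. Unc5b (ENSMUSG00000020099.8, minus strand of chromosome 10, 60762593 to 60831581), a receptor of neurons and of vessel tips, had 68 control counts (7.51 CPM) and 267 AEW counts (18.0 CPM) and was 2.4-fold higher (1.83 to 3.18). Unc5c (ENSMUSG00000059921.15, plus strand of chromosome 3, 141465216 to 141834924) had 43 control counts (4.75 CPM) and 156 AEW counts (10.5 CPM) and was 2.22-fold higher (1.57 to 3.18). Both were over 2-fold higher, and their log2 ratios were 0.44 and 0.33 on the pan-neuronal scale, no longer called. Unc5d (ENSMUSG00000063626.6, minus strand of chromosome 8, 28646717 to 29219636) had 34 control counts (3.76 CPM) and 29 AEW counts (1.96 CPM) and was 1.92-fold lower (1.13 to 3.27), a call lost after thinning and after correction for GC content of the last 500 bases. Unc5a had 10 and 26 counts with a ratio of 1.59 (0.741 to 3.69). Dcc (ENSMUSG00000060534.16, minus strand of chromosome 18, 71253634 to 72351069), the attractive netrin receptor, had 17 control counts (1.88 CPM) and 37 AEW counts (2.5 CPM), a ratio of 1.33 (0.73 to 2.52). The Dcc interval spans both directions at this depth.

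Across the families, called differences under TMM were more frequent among ligands than among receptors. Of 32 measured ligands, 12 were higher and 6 lower, 56.3% called, while of 31 receptors 3 were higher and 3 lower, 19.4% called, beside 32.3% of all measured genes. The contrast lay largely in the semaphorins, with 13 of 19 called, and the plexins, with none of 9. In the other families, calls were made for 2 of 7 ephrins, 1 of 3 Slits and 2 of 3 netrins. Among receptors these were 3 of 12 Eph receptors and 3 of 4 Unc5 receptors, and no neuropilin, Robo or Dcc. Total counts gave 12 and 4 for ligands and 7 and 3 for receptors, or 32.3% of receptors called. With total counts, 20.4% of all measured genes were higher and 12.3% lower, so the receptor share was close to that of all genes. On the pan-neuronal scale the shares were alike, 59.4% of ligands and 58.1% of receptors, with 18 lower in each. Of all measured genes, 3.39% were higher and 61.0% lower on that scale. The median distance of a log2 ratio from its group's own median, which these scalings leave as it is, was 0.72 for ligands and 0.42 for receptors. The median size of the log2 ratio, without its sign, was 0.67 for ligands, 0.45 for receptors and 0.41 for all measured genes. Read depth was similar, with a median summed count of 354.5 for ligands and 319 for receptors. The median with sign was -0.16 for ligands and 0.12 for receptors under TMM, and -0.98 and -0.70 on the pan-neuronal scale, where 1 ligand and no receptor was higher. This contrast was noticed in the values and was not tested.

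**Figure D3:**
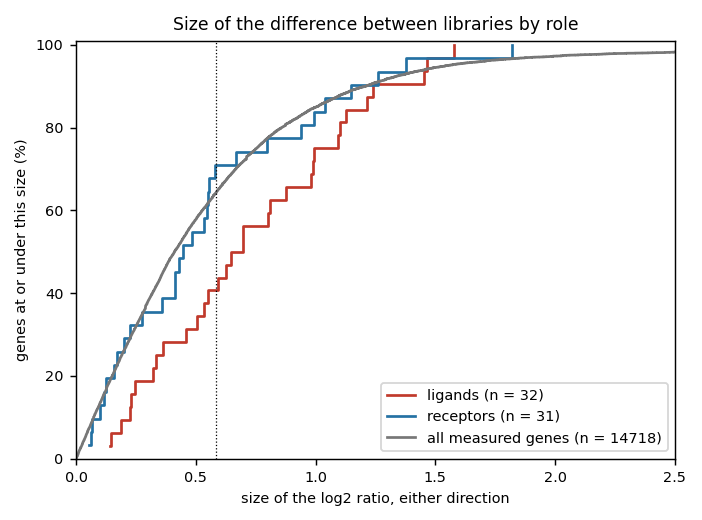
Cumulative share of genes (y axis, %) at or under a given size of the log2 ratio in either direction (x axis) for ligands, receptors and all measured genes with counts in both libraries; the dotted line marks 1.5-fold. The ligand curve lies to the right, with a median of 0.67 against 0.45 for receptors, and the receptor curve follows that of all genes. Sizes are on the TMM scale. On the pan-neuronal scale the shares called were alike, where 3.39% of all measured genes were higher and 61.0% lower.

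Some members lie close to each other on a chromosome. On mouse chromosome 5, in the order of their start positions, Sema3d was lower, Sema3a higher, Sema3e neither and Sema3c lower. On chromosome 9, Sema3b and Sema3f lie near each other, and Sema3f alone was called. Of the ephrins clustered on chromosome 3, Efna1 was higher, Efna4 had a ratio above 1 without a call and Efna3 had no counts. Exons of 18 of the 69 members share bases with another annotated gene, and for 6 that gene is itself in the count files.

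Other genes of axon guidance, from lists of further cues, adhesion molecules and signalling proteins, were called higher in 26 of 96 measured and lower in 13, or 27.1% and 13.5% beside 17.3% and 14.9% of all measured genes, with a median log2 ratio of 0.11. Of 30 further cues and receptors, 10 were higher and 3 lower. Dscaml1, a homophilic adhesion receptor, had 1 and 52 counts, and its ratio of 31.8 has a counting interval of 5.46 to 1279. Ptk7, a pseudokinase receptor of the Wnt pathway, had 24 control counts (2.65 CPM) and 133 AEW counts (8.97 CPM) and was 3.39-fold higher (2.18 to 5.47). The membrane proteins Flrt3 and Flrt2, which bind Unc5 receptors, were 2.11-fold lower (1.85 to 2.41) and 1.65-fold lower (1.43 to 1.9), the latter not called after either GC correction.

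Of 16 adhesion molecules, 4 were higher and 3 lower, beside 17.3% and 14.9% of all measured genes. Cntn2, an axonal contactin also called TAG-1, had 507 control counts (56.0 CPM) and 3327 AEW counts (224 CPM) and was 4.01-fold higher (3.65 to 4.41). Its relative Cntn1 was 1.8-fold higher (1.71 to 1.89). Chl1, a partner of neuropilin in semaphorin signalling, had 3543 control counts (391 CPM) and 3258 AEW counts (220 CPM) and was 1.78-fold lower (1.7 to 1.87), and the syndecan gene Sdc2 was 1.76-fold lower (1.57 to 1.97). Chl1 lost its call after the GC correction on the whole transcript, and Sdc2 after either correction. Among 50 signalling proteins, 12 were higher and 7 lower, again beside 17.3% and 14.9% of all measured genes. Dpysl3, a collapsin response mediator protein, had 3278 control counts (362 CPM) and 10513 AEW counts (709 CPM) and was 1.96-fold higher (1.88 to 2.04), and the kinase gene Pak3 was 1.85-fold higher (1.65 to 2.08). Rock1 and Rock2, the kinases through which RhoA contracts the growth cone, were 2.21-fold lower (2.08 to 2.36) and 2.25-fold lower (2.08 to 2.43). These kinases were alike in size and direction, with 2313 and 1710 counts for Rock1 and 1490 and 1085 counts for Rock2.

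The composition of the transcripts was recorded because ratios followed it weakly over all genes. The GC content of the longest coding transcript correlated with the log2 ratio at a Pearson r of 0.20 over 14153 measured genes and 0.13 over the 63 members, as a description across genes that share a library pair. For the GC content of the last 500 bases r was 0.18 and 0.27. The median GC content was 57.3% in the 15 higher, 56.5% in the 9 lower and 55.0% in the 39 other members. Over the last 500 bases these medians were 52.0%, 45.6% and 43.4%. Gene length had a Pearson r of -0.04 with the log2 ratio over the members.

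Upstream windows of 250 bases before the start site, from RefSeq on GRCm38.p6, matched 59 of the 69 members by symbol. They were searched on both strands for the GC box GGGCGG, the AP-1 site TGANTCA of injury-linked factors and the cAMP response element TGACGTCA. A GC box was present in 72.9% of member windows, against 56.3% of windows of 11213 measured genes and 32.7% of all 32851 windows in the table. These shares were not taken alike. The window nearest the annotated gene start was used for each member, but the one with the lowest coordinate for each measured gene. The 59 member windows also include members that were not measured. Among members it was present in 8 of 13 higher, 5 of 7 lower and 24 of 33 others. An AP-1 site was present in 1 member window and a cAMP response element in 1, or 1.69% each, beside 4.66% and 2.51% of measured genes. Shown, to set members of opposite direction side by side, are the windows of Unc5b and Sema4b, higher with some of the highest lower bounds, and of Sema3d and Epha8, lower with some of the lowest upper bounds. They run 5′ to 3′ on the gene's strand, with GC boxes in capitals on either strand.
Unc5b, higher in AEW (chr10:60831582-60831831, minus strand): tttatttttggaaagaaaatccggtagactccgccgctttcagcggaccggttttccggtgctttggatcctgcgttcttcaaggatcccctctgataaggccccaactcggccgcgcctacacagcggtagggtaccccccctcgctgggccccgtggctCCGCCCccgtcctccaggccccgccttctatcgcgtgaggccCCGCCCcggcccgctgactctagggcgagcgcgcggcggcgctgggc
Sema4b, higher in AEW (chr7:80186620-80186869, plus strand): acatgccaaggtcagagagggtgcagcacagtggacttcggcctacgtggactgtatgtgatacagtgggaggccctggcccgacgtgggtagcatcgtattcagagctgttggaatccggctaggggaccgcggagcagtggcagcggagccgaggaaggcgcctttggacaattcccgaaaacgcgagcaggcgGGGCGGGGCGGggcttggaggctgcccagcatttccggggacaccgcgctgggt
Sema3d, lower in AEW (chr5:12382916-12383165, plus strand): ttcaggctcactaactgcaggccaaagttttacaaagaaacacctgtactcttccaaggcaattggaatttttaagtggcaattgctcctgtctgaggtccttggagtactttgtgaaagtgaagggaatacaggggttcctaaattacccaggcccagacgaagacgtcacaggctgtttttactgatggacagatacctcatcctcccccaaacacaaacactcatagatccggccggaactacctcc
Epha8, lower in AEW (chr4:136956817-136957066, minus strand): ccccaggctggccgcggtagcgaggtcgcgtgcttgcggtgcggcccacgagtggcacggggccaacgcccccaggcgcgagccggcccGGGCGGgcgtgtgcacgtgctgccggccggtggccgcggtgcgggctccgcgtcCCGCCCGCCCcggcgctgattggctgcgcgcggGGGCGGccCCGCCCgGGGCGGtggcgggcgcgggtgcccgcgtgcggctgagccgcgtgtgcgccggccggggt
The Unc5b and Sema4b windows hold 2 GC boxes each, and the Epha8 window holds 6, some of them overlapping, with 84.0% GC and 46 CpG dinucleotides. The Sema3d window holds none, at 46.8% GC and 4 CpG dinucleotides. The windows of the lower members shown thus differ widely in base composition, with the higher ones between them. They were not placed alike. The start site used lies 219 bases from the annotated gene start for Sema3d, 29 for Sema4b and 0 for Unc5b and Epha8.

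The called members were recomputed under other scalings. All 15 higher and 9 lower calls were kept with DESeq2 size factors, with upper quartile scaling and with totals that leave out ribosomal and haemoglobin rows. After the GC correction on the whole transcript, 12 of the 15 and 8 of the 9 were kept, where 17.0% of all genes were higher and 13.9% lower. With new calls included, that correction gave 12 members higher and 11 lower. On the last 500 bases 11 and 7 were kept, where 16.7% and 13.9% were called. With new calls included, these were 12 higher and 8 lower. On the pan-neuronal scale, where 3.39% of all genes were higher and 61.0% lower, all 9 lower calls were kept and 1 of the 15 higher. On it, Efna1, Efna5, Ephb6, Sema3f and Sema4c turned below 0. The other 10 higher members kept log2 ratios above the pan-neuronal median of 0.82 on the TMM scale.

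**Figure D4:**
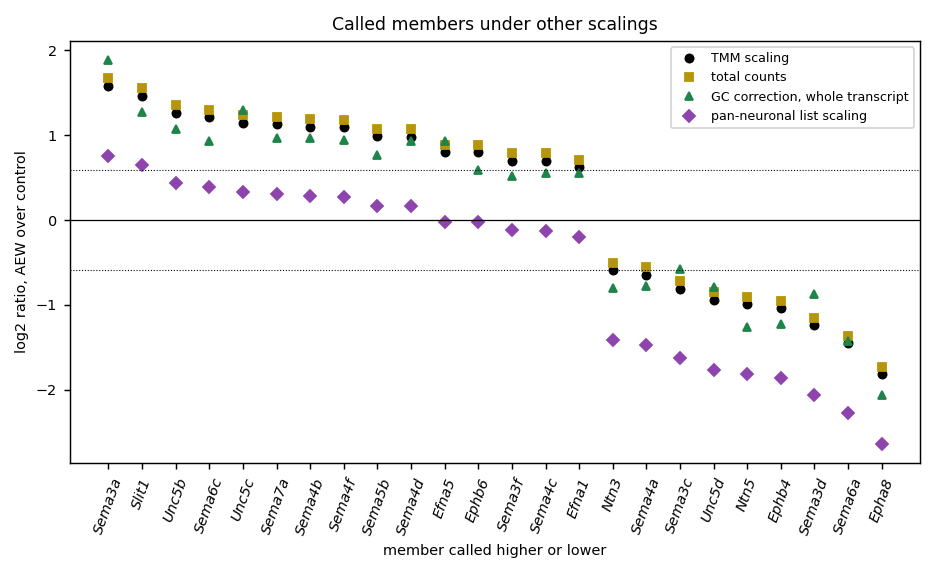
Log2 ratio of AEW to control (y axis) of the 24 called members (x axis, in order of size) under TMM scaling, total counts, the GC correction on the whole transcript and scaling on the pan-neuronal list; dotted lines mark 1.5-fold. The pan-neuronal scale lies 0.82 below TMM throughout, which leaves Slit1 called higher at 0.64 and puts Efna5, Ephb6, Sema3f, Sema4c and Efna1 below 0.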

How the data were processed

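The authors deposited raw counts of reads for 23282 gene symbol rows in each of 2 libraries, as whole numbers with no normalization. Per the labels' protocols, Trizol was used for extraction and 500 ng of total RNA entered a Lexogen QuantSeq preparation. Bowtie2, bedtools and mm10 are listed in the submitters' processing notes. Not given in the sources used here are versions, annotation, strand use and the handling of multi-mapped reads. Repeated symbols (35, on 79 rows) stayed in the totals and were otherwise left out. Counts were scaled by TMM in edgeR 4.0.16 (R 4.3.3), and ratios were given exact conditional binomial (Clopper-Pearson) intervals at 95% in scipy 1.17.1. The intervals cover counting error only, since each group has 1 pooled library. The deposited values carry no molecular identifiers, so repeat reads of the same molecule could not be told apart and were counted as separate. A count of 0 allows up to 3 counts. Counts were not divided by transcript length, so levels were not compared between genes.

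The members and lists were chosen with earlier results of these data known. Named are all called members, the most counted member of each family, and per further list the 2 genes with the highest lower and the 2 with the lowest upper bounds. Remaining members are given by value to account for each. GENCODE M21 (mm10) gave identifiers, 1-based coordinates and transcript GC content by symbol. Of 208 listed symbols, 206 matched.

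Simulated data of this comparison were used to test the calls against counting error. Of 100 genes set to 2-fold, 98.0% were called higher, and of 100 set to 0.5 times the control, 92.0% were called lower. Among 14867 genes, 71 unchanged genes were called higher and 71 lower. The intervals, which cover counting error only, held the true ratio in 95.43%. False calls from differences between pools, dissections or library preparations were therefore not tested. The shares were not split by read depth, so calls on few reads were not tested separately. Alternatives were DESeq2 1.42.0 size factors, total count, upper quartile and pan-neuronal scaling, no filter or a summed count of at least 100, thinning of the AEW library, an interval excluding 1.5-fold, a 2-fold threshold, totals without Rn45s, haemoglobin and ribosomal protein rows, and, chosen after seeing the data, lowess corrections for GC content with statsmodels 0.14.6.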

Additional observations from a re-analysis of the deposited data

How the results depend on the processing

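With 1 library per group, a difference between treatments cannot be told apart from one between pools, dissections or library preparations. No paired analysis was possible because each group has 1 pooled library. Members called higher and lower numbered 15 and 9 under TMM. They numbered 1 and 36 when scaled on the pan-neuronal list, 9 and 4 when the interval had to exclude 1.5-fold, and 8 and 4 at 2-fold. The other axon guidance genes, 26 and 13 under TMM, numbered 3 and 56, 17 and 8, and 9 and 4 under the same settings, and 8 were lower after the whole-transcript GC correction. The shift by 0.82 turned the median log2 ratio of members from 0.10 to -0.72 and that of the other genes from 0.11 to -0.71. It turned Efna1 to -0.20, Efna5 to -0.0198, Ephb6 to -0.0256, and Sema3f and Sema4c to -0.12 each. The pan-neuronal setting lowers every log2 ratio by the same amount, with 61.0% of all measured genes called lower. The stricter rules ask for a larger difference by their construction. With no filter on low counts, the calls stayed at 15 and 9. A summed count of at least 100 left 51 members, with 14 higher and 6 lower. Thinning the AEW library gave 17 and 7, and total counts 19 and 7. The GC correction on the whole transcript gave 12 and 11, and that on the last 500 bases 12 and 8. The 6 members under the count minimum, 1 of them with no counts, were not compared at this depth.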
